A study of Mus musculus with 24 samples.

Results

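PIWI proteins are the germline branch of the Argonaute family, and the genes described here are the 3 mouse PIWI genes, Piwil1 (MIWI), Piwil2 (MILI) and Piwil4 (MIWI2), with 7 genes whose products make, trim, protect or work with their small RNAs, Mael, Mov10l1, Asz1, Pld6, Gtsf1, Henmt1 and Pnldc1. They were chosen by name, with earlier results of these data known but by no threshold on a measured value, and are 10 of the 55536 genes in the count table. Poly(A) RNA was sequenced from pachytene/diplotene spermatocytes and from round spermatids of Ago413+/+ (wild-type), Ago413+/- (heterozygous) and Ago413-/- (null) mice. All were C57BL/6J males aged 10 to 15 weeks, and the germ cells were enriched by sedimentation through a gradient of bovine serum albumin. The Ago413 deletion is constitutive, so it is carried by every cell of the animal and not by germ cells alone, and on chromosome 4 it removes the whole of Ago1 together with part of each neighbour, Ago3 and Ago4. Each library came from cells of 2 to 5 pooled mice, and fractions with over 70% of the wanted cells under the microscope were kept, so a library is a pool and not an animal. The labels do not state that the pools were separate preparations, so p-values measure the spread between these libraries.

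PIWI-interacting RNAs (piRNAs) are small RNAs that guide PIWI proteins to transcripts, above all those of transposons, in the germline. Long precursors are unwound by the helicase MOV10L1 and cut on the outer surface of mitochondria by PLD6, where ASZ1 is also found, and the intermediates are trimmed at their 3′ ends by PNLDC1 and methylated there by HENMT1. MIWI and MILI carry the pachytene piRNAs of meiotic and early post-meiotic cells, whereas MIWI2 acts in the nuclei of fetal germ cells, where transposons are silenced by DNA methylation. The germ cell proteins MAEL and GTSF1 are needed for piRNA-guided silencing.

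Gene counts were obtained for 24 libraries, of which 3 are called outliers in the labels, where they are said to have been left out of later work. The remaining 21 libraries were 10 of spermatocytes (4 wild-type, 3 heterozygous, 3 null) and 11 of round spermatids (3 wild-type, 4 heterozygous, 4 null), with 12825105 to 29749058 counts each. The targeted locus matched the genotype labels, for the null, as Ago1 had 0 counts in all 7 null libraries against 2.99 to 4.27 CPM (counts-per-million of the library total, scaled by the TMM factors of edgeR) in wild-type spermatocytes and 2.83 to 4.49 CPM in wild-type round spermatids. Heterozygous Ago1 overlapped the wild type (1.71 to 3.75 CPM in spermatocytes and 2.08 to 3.38 CPM in round spermatids) and so does not check that label. Transcripts of the partly deleted Ago3 were higher in the null (64.8 ± 24.5 CPM, SD, n = 3, against 7.02 ± 2.89 CPM, SD, n = 4, in spermatocytes), and heterozygous libraries, at 12.3 to 40.8 CPM there, all lay above the wild type, at 4.92 to 11.3 CPM. The fractions carried the markers of their labels, but not those alone. The summed level of 8 round spermatid markers was 3487 to 12020 CPM in spermatocyte libraries and 15630 to 43830 CPM in round spermatid libraries, whereas that of 7 pachytene/diplotene markers was 2596 to 3809 CPM in the former and 2477 to 3171 CPM in the latter. Library names carry a number whose meaning the labels do not give. Numbers above 60 were borne by wild-type replicate 5 and null replicates 2 and 3 of the spermatocytes, and by wild-type replicate 4, heterozygous replicate 4 and null replicates 3 and 4 of the round spermatids.

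The counts are of reads over the exons of each gene, and positions are those of GENCODE M21 on GRCm38/mm10, the build of the count table. All 10 are protein-coding. Of the PIWI genes, Piwil1 (ENSMUSG00000029423) lies at chr5:128702524-128755474 (+), Piwil2 (ENSMUSG00000033644) at chr14:70372477-70429383 (-) and Piwil4 (ENSMUSG00000036912) at chr9:14696230-14740733 (-). The precursor-processing genes are Mov10l1 (ENSMUSG00000015365) at chr15:88982909-89055152 (+), Pld6 (ENSMUSG00000043648) at chr11:59783897-59787645 (-) and Asz1 (ENSMUSG00000010796) at chr6:18050964-18109061 (-). The 3′ end genes are Pnldc1 (ENSMUSG00000073460) at chr17:12888729-12910230 (-) and Henmt1 (ENSMUSG00000045662) at chr3:108939873-108960774 (+). Mael (ENSMUSG00000040629) lies at chr1:166201201-166238747 (-) and Gtsf1 (ENSMUSG00000022487) at chr15:103402405-103430470 (-).

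The levels of the 10 genes spanned several orders of magnitude, and their order is compared here per length (CPM per kilobase of merged exons). In wild-type spermatocytes Mael was highest, at 810.0 ± 20.3 CPM per kilobase (SD, n = 4), followed by Gtsf1 at 231.1 ± 28.2 and Piwil1 at 96.3 ± 50.6. Below them came Pld6 at 49.0 ± 13.7, Piwil2 at 25.6, Henmt1 at 19.9 ± 2.61, Mov10l1 at 11.9 ± 6.66, Asz1 at 7.68 ± 1.56 and Pnldc1 at 2.26 ± 0.463. Mael, Gtsf1 and Piwil1 held the first 3 places in each of the 6 groups, and the libraries of Mael did not overlap those of Gtsf1, nor those of Gtsf1 the libraries of Piwil1, in any group. From Piwil1 down to Asz1 the neighbours in wild-type spermatocytes overlapped in their ranges, so their order there is not fixed beyond the spread. Wild-type round spermatids had the same order of means, and there Henmt1, Mov10l1 and Asz1 no longer overlapped one another. Piwil4, whose product acts before birth, had 0 to 9 counts in every library and passed the filter on low counts in no fit. Its highest group mean was 0.269 ± 0.104 CPM (SD, n = 4) in heterozygous round spermatids, where 3 counts correspond to as much as 0.181 CPM, so it was not tested and no difference is read from it. The other 9 genes passed the filter in every fit.

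Piwil1 and Pld6 are shown first by sequence, since both were lower in wild-type round spermatids than in spermatocytes by over 2.5-fold, beside Mael and Gtsf1, which were not called different. MYBL1 (A-MYB) is a transcription factor of pachytene spermatocytes known to drive genes of the piRNA pathway, and MYB proteins bind a short word, written here as CAACNG on either strand, of which CAACTGCC is a longer form. Each sequence is the stretch just before the first annotated exon near a RefSeq start site (RefSeq, GRCm38.p6), read 5′ to 3′ on the gene's strand, with any match to the word in capitals. The Piwil1 stretch ends 5 bases inside an annotated exon so that its match is whole, and in it the capitals are the longer word on the reverse strand. They lie at chr5:128736079-128736178 (+), chr11:59787658-59787767 (-), chr1:166238748-166238847 (-) and chr15:103430471-103430570 (-).
Piwil1: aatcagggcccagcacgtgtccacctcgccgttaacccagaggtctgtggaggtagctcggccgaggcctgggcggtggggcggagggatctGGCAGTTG
Pld6: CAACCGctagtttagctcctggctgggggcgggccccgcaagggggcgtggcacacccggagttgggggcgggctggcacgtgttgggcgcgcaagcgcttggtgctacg
Mael: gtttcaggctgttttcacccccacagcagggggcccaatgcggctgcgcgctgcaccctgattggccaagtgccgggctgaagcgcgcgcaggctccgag
Gtsf1: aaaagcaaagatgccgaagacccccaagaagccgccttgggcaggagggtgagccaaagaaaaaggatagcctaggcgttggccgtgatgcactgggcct

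The 250 bases before the start site were searched for both words. RefSeq windows were at hand for 8 of the 10 genes, all but Piwil2 and Pnldc1, and Piwil4 and Pld6 each had a second window. CAACNG was present for Piwil1, Piwil4 and Pld6, that is, in 4 of the 10 windows of the 8 genes, and in 29.3% of 32851 windows of all genes. The Piwil4 match lay in its second window and not in the one at the 5′ end of the annotated gene. No match was found for Mael, Mov10l1, Asz1, Gtsf1 or Henmt1. Of these, Asz1 and Henmt1 were also called lower in wild-type round spermatids (below), so the word did not go with all the genes that were lower. The longer word CAACTGCC was present for Piwil1 alone, in 1 of the 10 windows, and in 0.974% of all windows. In Piwil1 it began 75 bases before the start site, and in the Pld6 window printed above the shorter word began 110 bases before it. A match here is a string of letters and says nothing of binding.

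The comparison between the fractions asks how these genes change as wild-type cells leave meiosis. In the wild type 4 of the 9 tested genes were called lower in round spermatids than in spermatocytes and none higher, where a call required a Benjamini-Hochberg adjusted p under 0.05 over all genes and a log2 fold change beyond 0.5 in the quasi-likelihood test of edgeR. Over all 20404 genes tested, 11.4% were called lower. Piwil1 fell 2.99-fold, Pld6 fell 2.58-fold, Asz1 fell 1.71-fold and Henmt1 fell 1.56-fold. In 8 of the 9 genes the log2 fold change was below 0, with a median of -0.77 against 0.02 for all genes. Fewer meiotic cells and less RNA per cell cannot be told apart in bulk libraries, here or in any comparison.

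Piwil1, which encodes the PIWI protein of pachytene spermatocytes and round spermatids, was at 548, 299, 655 and 176 CPM in wild-type spermatocyte replicates 1, 2, 4 and 5. Wild-type round spermatid replicates 1, 2 and 4 held 196, 102 and 122 CPM. Spermatocyte replicate 5 lay within the range of the round spermatids, so the groups overlapped, although the other 3 spermatocyte libraries were higher than all 3 round spermatid libraries. The log2 fold change was -1.58 (SE 0.47, adjusted p = 0.0166 by edgeR).

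Pld6, the mitochondrial nuclease, was at 107, 73.0, 106 and 58.8 CPM in the same spermatocyte libraries and at 42.03, 25.1 and 33.1 CPM in round spermatids. All spermatocyte libraries lay above all round spermatid libraries, with a log2 fold change of -1.36 (SE 0.28, adjusted p = 0.00139 by edgeR). Asz1, a partner of PLD6 at the mitochondrion, was at 21.5, 18.8, 28.0 and 18.6 CPM in spermatocytes and at 11.6, 13.1 and 13.5 CPM in round spermatids. Its groups did not overlap either, and its log2 fold change was -0.77 (SE 0.18, adjusted p = 0.00296 by edgeR).

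Henmt1, the piRNA methyltransferase, was at 60.3, 54.8, 54.3 and 43.6 CPM in wild-type spermatocytes and at 36.4, 31.4 and 34.6 CPM in round spermatids. These groups were also apart, with a log2 fold change of -0.64 (SE 0.16, adjusted p = 0.00590 by edgeR). Together with Mael, which was at 1367 to 1450 CPM in spermatocytes and 1162 to 1253 CPM in round spermatids, 4 of the 9 genes had round spermatid libraries wholly below the spermatocyte libraries. That held for 16.4% of all tested genes.

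Piwil2, the second PIWI gene of meiotic cells, was at 165, 102, 219 and 54.7 CPM in wild-type spermatocytes and at 89.2, 62.3 and 59.3 CPM in round spermatids. Replicate 5 was again the lowest of the spermatocyte libraries and lay below every round spermatid library, and the log2 fold change of -0.94 (SE 0.35, adjusted p = 0.0502 by edgeR) was not called. With pairs of consecutive library numbers as a block it was called (-0.87, adjusted p = 0.0354 by edgeR). Mov10l1, the precursor helicase, had the same order of spermatocyte libraries, at 57.4, 33.8, 85.3 and 22.3 CPM, against 28.2, 32.2 and 26.9 CPM in round spermatids. Its log2 fold change was -0.77 (SE 0.31, adjusted p = 0.0721 by edgeR). Pnldc1, the trimming nuclease, was at 4.58 to 7.23 CPM and 3.57 to 4.88 CPM, with a log2 fold change of -0.56 (SE 0.23, adjusted p = 0.0749 by edgeR).

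Gtsf1 and Mael differed least. The log2 fold change of Gtsf1 was 0.21 (SE 0.18, adjusted p = 0.423 by edgeR) and that of Mael was -0.22 (SE 0.11, adjusted p = 0.142 by edgeR).

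**Figure D1:**
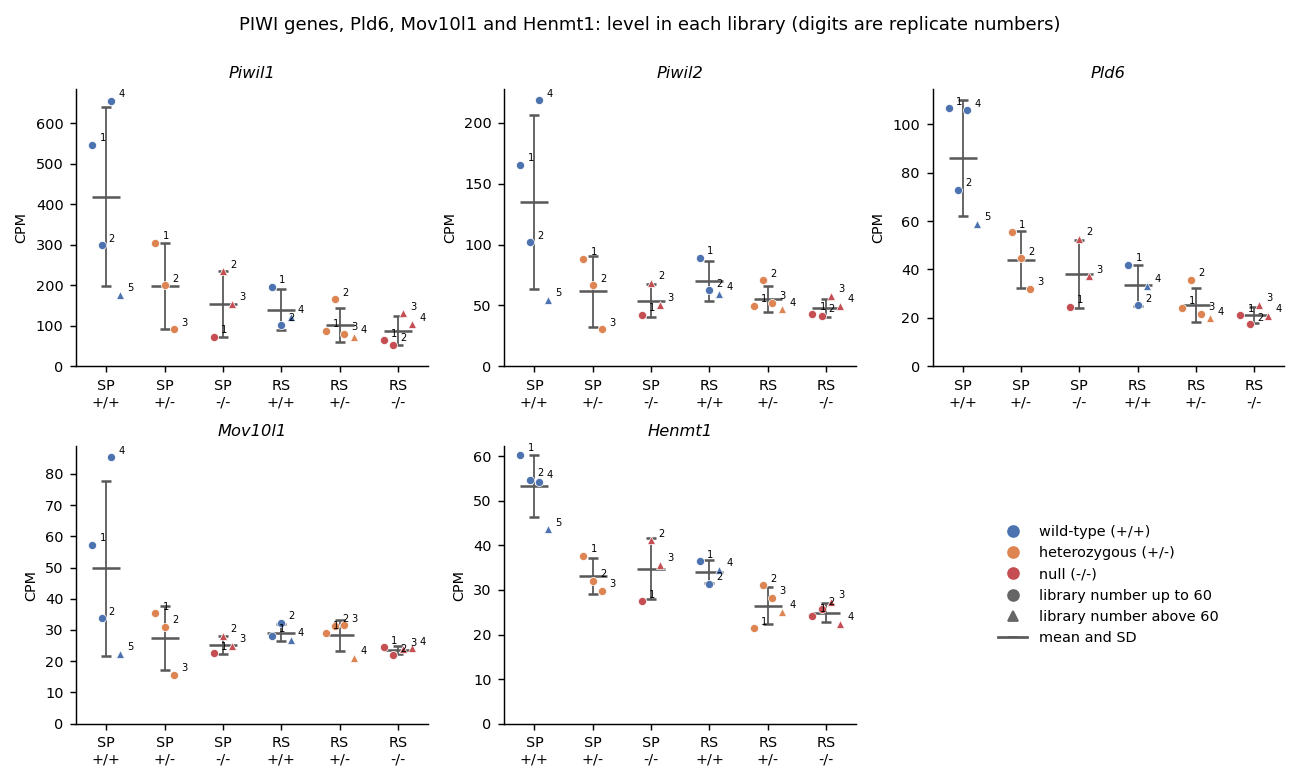
Level of Piwil1, Piwil2, Pld6, Mov10l1 and Henmt1 in each of the 21 libraries, in CPM on linear axes from 0, by cell fraction (SP, spermatocytes; RS, round spermatids) and genotype. Points are libraries with their replicate numbers, circles and triangles tell library numbers up to 60 and above 60, and bars are the mean and SD. Wild-type spermatocyte replicates 1 and 4 were the highest libraries of Piwil1 at 548 and 655 CPM, whereas replicate 5 was at 176 CPM.

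**Figure D2:**
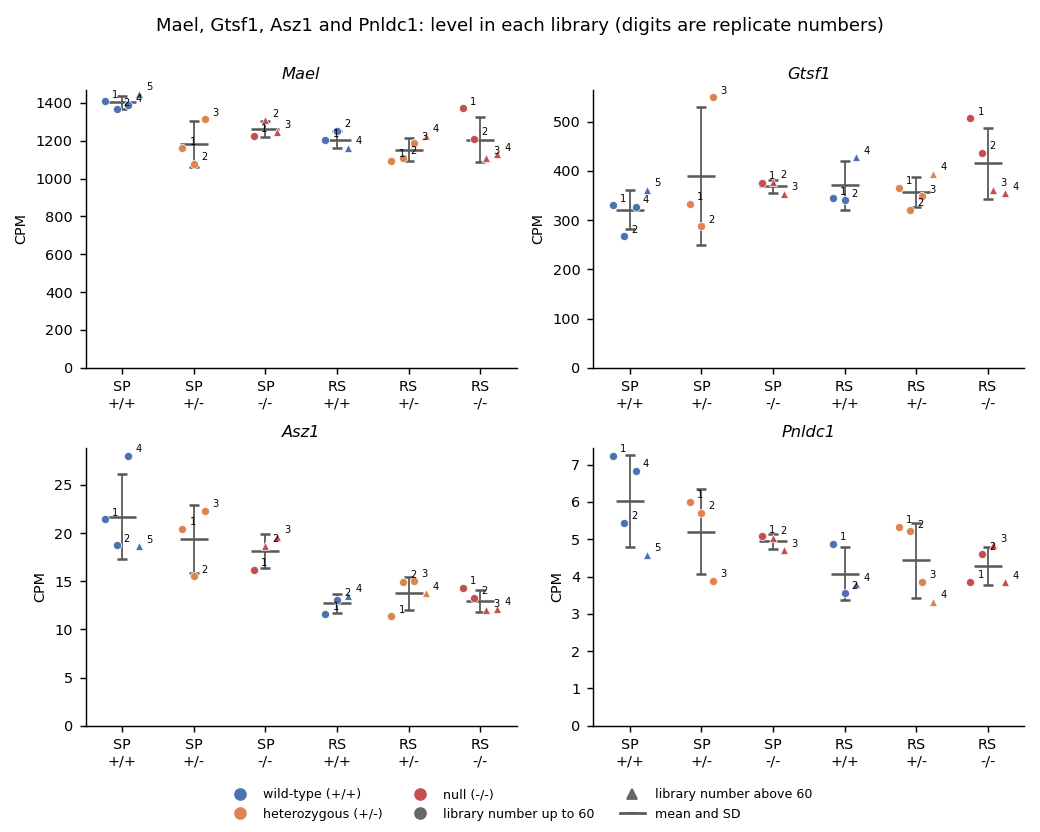
Level of Mael, Gtsf1, Asz1 and Pnldc1 in each library, in CPM on linear axes from 0, drawn in the same way. Mael stayed between 1078 and 1450 CPM in all 21 libraries, while Asz1 was at 15.5 to 28.0 CPM in spermatocytes and 11.4 to 15.0 CPM in round spermatids.

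Of the 7 tests that each left out 1 wild-type library, 7 called Pld6, 7 called Asz1, 7 called Henmt1 and 4 called Piwil1. The call of Piwil1 was lost without spermatocyte replicate 4 (adjusted p = 0.0660 by edgeR), round spermatid replicate 2 (adjusted p = 0.0841 by edgeR) or round spermatid replicate 4 (adjusted p = 0.0683 by edgeR). Without spermatocyte replicate 5, Piwil2, Mov10l1 and Pnldc1 were called as well, which made 7 called genes, all lower, where 14.7% of all genes were called lower, and without spermatocyte replicate 2 there were 6, at 10.5%. DESeq2 also called these 7, where 13.8% of all genes were called lower. Within library numbers up to 60, Piwil1 averaged 501 CPM in 3 wild-type spermatocyte libraries and 149 CPM in 2 round spermatid libraries. Above 60 each side had 1 library, at 176 and 122 CPM.

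Markers of other cells also differed between the wild-type fractions, not all in one direction. Pachytene/diplotene markers summed to 3458 to 3809 CPM in wild-type spermatocytes and 2801 to 3056 CPM in wild-type round spermatids, with no overlap, and 2 of the 7 were called lower (Pou5f2 and Clgn). The summed level of the 7 leptotene/zygotene markers, none of which was at 0, was 259, 176, 373 and 207 CPM in wild-type spermatocyte replicates 1, 2, 4 and 5, with the higher sums in the 2 libraries with most Piwil1, and 118 to 133 CPM in wild-type round spermatids. Of these markers 3 were called lower in round spermatids (Hormad1, Sycp1 and Spo11) and 1 higher (Dmc1). Of 10 spermatogonial markers, none at 0, 4 were called higher in round spermatids and 1 lower, with a median log2 fold change of 0.69, although their sum was 68.2 to 113 CPM in spermatocytes and 88.0 to 93.6 CPM in round spermatids. Of 6 macrophage markers 4 were called higher, and their sum was 6.79 to 10.3 CPM in spermatocytes, where 1 marker had 0 counts throughout, and 24.5 to 39.3 CPM in round spermatids. Among all 20404 genes 11.4% were called lower and 24.2% in either direction. The part of these cells in the result was not tested.

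The libraries left out as outliers bear directly on this comparison. In the library labelled wild-type spermatocyte replicate 3 the round spermatid markers summed to 13760 CPM, above every other spermatocyte library, and in the library labelled wild-type round spermatid replicate 3 they summed to 5192 CPM, below every other round spermatid library. Piwil1 was at 99.3 CPM in the former and 97.3 CPM in the latter, Pld6 at 27.1 and 23.1 CPM, Asz1 at 10.99 and 18.8 CPM and Henmt1 at 30.4 and 32.9 CPM. With all 24 libraries in the fit, edgeR called 0 of 20542 genes (0.0%) between the wild-type fractions, although 5950 had an unadjusted p under 0.05. The adjusted p-values of the 4 genes were then 0.0730 for Piwil1, 0.0630 for Pld6, 0.135 for Asz1 and 0.0671 for Henmt1, with log2 fold changes of -1.46, -1.27, -0.46 and -0.53.

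The same step was examined in the heterozygous and null mice. In the null 1 of 9 genes was called, Pld6, which was at 24.5, 52.8 and 37.2 CPM in spermatocytes and at 20.98, 17.3, 25.4 and 20.8 CPM in round spermatids. Replicate 1 of the null spermatocytes lay within the round spermatid range. The log2 fold change was -0.85 (SE 0.27, adjusted p = 0.0302 by edgeR), in a comparison where 5.42% of all genes were called lower. Asz1 and Henmt1 had adjusted p-values of 0.0497 and 0.0398 but log2 fold changes of -0.49 and -0.48, short of the limit of 0.5. The log2 fold change of Piwil1 was -0.81 (SE 0.45, adjusted p = 0.223 by edgeR), that of Piwil2 was -0.16 (SE 0.34, adjusted p = 0.791 by edgeR) and that of Mov10l1 was -0.10 (SE 0.31, adjusted p = 0.868 by edgeR). Leptotene/zygotene markers summed to 163 to 208 CPM in null spermatocytes and 99.3 to 130 CPM in null round spermatids. The sums of pachytene/diplotene markers were 2596 to 3305 CPM and 2477 to 2626 CPM, and those of spermatogonial markers 64.6 to 94.7 CPM and 82.95 to 123 CPM. The part of these cells in the null step was not tested.

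The call of Pld6 in the null was lost when null spermatocyte replicate 2 or 3 or null round spermatid replicate 1 or 2 was left out (edgeR adjusted p from 0.0688 to 0.231), and with the outlier libraries in the fit (adjusted p = 0.135 by edgeR). Without null spermatocyte replicate 1, which held 12020 CPM of round spermatid markers against 3940 and 6576 CPM in the other null spermatocyte libraries, Pld6, Asz1 and Henmt1 were all called lower, as were 7.65% of all genes. Henmt1 joined Pld6 when null round spermatid replicate 3 was left out, at 5.02%. DESeq2 called these 3 genes lower in the null, with 7.49% of all genes.

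In the heterozygote 0 of 9 genes were called by edgeR, against 8.89% of all genes, while 3 had an unadjusted p under 0.05, against 23.6% of all genes, and DESeq2 called Pld6 and Asz1 lower, with 3.17% of all genes. Pld6 was at 55.6, 44.6 and 31.9 CPM in heterozygous spermatocytes and at 24.2, 35.7, 21.7 and 19.8 CPM in round spermatids, a log2 fold change of -0.80 (SE 0.27, adjusted p = 0.0633 by edgeR). Leaving out 1 library led to a call of 1 gene in 3 of the 7 tests, Asz1 without spermatocyte replicate 2 (4.39% of all genes lower), and Pld6 without spermatocyte replicate 3 (0.654%) or round spermatid replicate 2 (2.53%). Piwil1 was at 305, 200 and 91.2 CPM in spermatocytes and at 87.5, 166, 80.6 and 72.8 CPM in round spermatids, so its groups overlapped (log2 fold change -0.97, SE 0.45, adjusted p = 0.192 by edgeR). For Piwil2 the log2 fold change was -0.17 (SE 0.34, adjusted p = 0.814 by edgeR), and in neither heterozygous nor null mice did its round spermatid libraries stand apart.

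**Figure D3:**
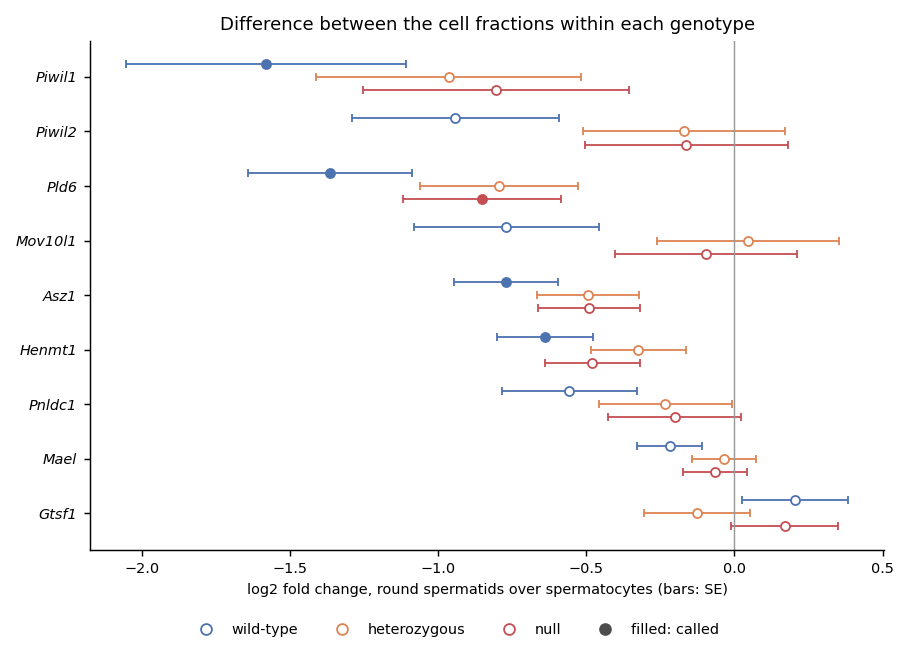
Log2 fold change of round spermatids over spermatocytes for the 9 tested genes, in wild-type, heterozygous and null mice. Points are edgeR estimates with bars of 1 SE, and filled points were called. The wild-type values of Piwil1 (-1.58), Pld6 (-1.36), Asz1 (-0.77) and Henmt1 (-0.64) and the null value of Pld6 (-0.85) were called.

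Whether the step between fractions differed by genotype was tested directly as an interaction. The interaction was above 0 in 8 of the 9 genes for the null, meaning a less negative or more positive effect in round spermatids than in spermatocytes, with a median of 0.36 log2 units against 0.05 for all genes. For the heterozygote it was also above 0 in 8 of the 9, with a median of 0.32 against -0.01, and both share the wild-type libraries. No gene was called for either interaction by edgeR or by DESeq2, among the 9 or among all 20404 genes (0.0% in each), although by edgeR 1215 genes had an unadjusted p under 0.05 for the null and 1576 for the heterozygote, of which none belonged to the 9. The largest estimates were 0.78 (SE 0.49, adjusted p = 0.807 by edgeR) for Piwil2 in the null and 0.81 (SE 0.44, adjusted p = 0.638 by edgeR) for Mov10l1 in the heterozygote. These SEs leave room for differences of more than 2-fold in either of these genes, so the steps were not shown to differ and not shown to be alike.

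The comparison of null with wild-type mice asks whether these genes respond to loss of the Argonaute genes. In spermatocytes 0 of the 9 genes were called by edgeR, where 0.0411% of 19450 genes were, and 5 had an unadjusted p under 0.05, all lower in the null, against 30.4% of all genes in either direction. DESeq2 called 4 lower, Piwil1, Piwil2, Pld6 and Henmt1, in a comparison where it called 6.48% of all genes lower. The estimates were largest for the PIWI genes. Piwil1 was at 71.99, 234 and 155 CPM in null replicates 1, 2 and 3, within the range of 176 to 655 CPM of the wild type for replicate 2 and below it for the others. The wild-type mean of 419 ± 221 CPM (SD, n = 4) compared with means of 199 ± 107 CPM (SD, n = 3) for heterozygous and 154 ± 81.2 CPM (SD, n = 3) for null libraries. The log2 fold change between null and wild type was -1.43 (SE 0.49, adjusted p = 0.0849 by edgeR), with an adjusted p of 0.0287 in DESeq2.

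Piwil2 was at 42.4, 68.8 and 50.2 CPM in null spermatocytes, a log2 fold change of -1.30 (SE 0.42, adjusted p = 0.0759 by edgeR and 0.0244 by DESeq2). Wild-type replicate 5, at 54.7 CPM, lay among the null libraries, and the other 3 wild-type libraries lay above them. Pld6 was at 24.5, 52.8 and 37.2 CPM in the null, below all 4 wild-type libraries, with a log2 fold change of -1.15 (SE 0.29, adjusted p = 0.0599 by edgeR and 0.00750 by DESeq2). Henmt1 was at 27.5, 41.2 and 35.7 CPM in the null, also below all wild-type libraries, with a log2 fold change of -0.60 (SE 0.19, adjusted p = 0.0733 by edgeR and 0.0313 by DESeq2). With Mael, at 1228 to 1309 CPM in the null, 3 genes had null libraries wholly below the wild type, where 14.8% of all genes did.

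Mov10l1 was at 22.5, 28.2 and 25.0 CPM in null spermatocytes against 22.3 to 85.3 CPM in the wild type, a log2 fold change of -0.95 (SE 0.38, adjusted p = 0.121 by edgeR). The null libraries were close to one another and to wild-type replicate 5. Asz1, Pnldc1, Mael and Gtsf1 had log2 fold changes of -0.23, -0.26, -0.13 and 0.22, with SEs of 0.12 to 0.25 and edgeR adjusted p-values from 0.442 to 0.494. The median over the 9 genes was -0.60 against -0.03 for all genes.

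The edgeR calls changed when wild-type replicate 5 was left out. Without it edgeR called 5 of the 9 genes lower in the null, Piwil1 (adjusted p = 0.0244), Piwil2 (0.0129), Mov10l1 (0.0260), Pld6 (0.0105) and Henmt1 (0.0234), while it then called 9.71% of all genes lower, where 0.0411% had been called in either direction with it. Replicate 5 had a library number above 60, as had null replicates 2 and 3. Within these 3 libraries Piwil1 was at 176 CPM in the wild type and averaged 195 CPM in the null, Piwil2 was at 54.7 and 59.5 CPM, Mov10l1 at 22.3 and 26.6 CPM, Pld6 at 58.8 and 45.0 CPM and Henmt1 at 43.6 and 38.4 CPM. Among numbers up to 60, by contrast, 3 wild-type libraries averaged 501 CPM of Piwil1 and the single null library held 71.99 CPM. With a term for the 2 ranges of numbers the log2 fold change of Piwil1 was -1.36, with an edgeR adjusted p of 0.288, and 0 genes of the 9 were called, at 0.0206% of all genes. What the library numbers stand for was not tested.

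Stage markers also differed between the same libraries. Leptotene/zygotene markers summed to 163 to 208 CPM in null spermatocytes and 176 to 373 CPM in the wild type, and pachytene/diplotene markers to 2596 to 3305 CPM and 3458 to 3809 CPM, while round spermatid markers summed to 3940 to 12020 CPM and 3487 to 7928 CPM. By edgeR 0 of the 7 leptotene/zygotene and 0 of the 7 pachytene/diplotene markers were called between null and wild-type spermatocytes, with 4 and 4 at an unadjusted p under 0.05, whereas DESeq2 called 3 and 4 of them. The 10 spermatogonial markers had a median log2 fold change of 0.69 in the null, with 0 called by edgeR, 5 at an unadjusted p under 0.05 (4 higher) and 3 called by DESeq2, and their sum was 64.6 to 94.7 CPM against 68.2 to 113 CPM in the wild type. Over all genes in this comparison 0.0411% were called by edgeR, 30.4% had an unadjusted p under 0.05 and 15.6% were called by DESeq2. The part of cell composition in the differences was not tested.

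In heterozygous spermatocytes the values lay close to those of the null. Piwil2 was at 88.4, 66.4 and 30.5 CPM, with a log2 fold change from the wild type of -1.07 (SE 0.42, adjusted p = 0.153 by edgeR), and the log2 fold change of Piwil1 was -1.02 (SE 0.48, adjusted p = 0.205 by edgeR). Pld6 and Henmt1 lay below all wild-type libraries, at 31.9 to 55.6 CPM and 29.9 to 37.7 CPM, with log2 fold changes of -0.92 (SE 0.28, adjusted p = 0.125 by edgeR) and -0.63 (SE 0.19, adjusted p = 0.124 by edgeR). Such separation, lower in the heterozygote, was seen for 2 of the 9 genes and 9.63% of all genes. No gene of the 9 was called by edgeR, at 0.0257% of all genes, and 3 had an unadjusted p under 0.05, against 24.6% of all genes, whereas DESeq2 called Pld6 (adjusted p = 0.0439) and Henmt1 (adjusted p = 0.0336) lower, at 2.79%. Without wild-type replicate 5 edgeR called Piwil2, Pld6 and Henmt1 lower, with 4.66% of all genes. In the same comparison spermatogonial markers had a median log2 fold change of 1.00, with 1 of 10 called by edgeR (Stra8, higher) and 7 by DESeq2, and summed to 93.2 to 118 CPM in the heterozygote. DESeq2 called 1228 of all 19450 genes there. Pachytene/diplotene markers, at 2793 to 3533 CPM in the heterozygote, had 6 of 7 estimates below 0 and 0 called by edgeR, with 3 at an unadjusted p under 0.05 and 2 called by DESeq2, and the part of these cells was not tested. Null and heterozygous spermatocytes gave log2 fold changes between -0.40 (Piwil1, SE 0.50) and 0.07 (Mael, SE 0.13), none of them with an edgeR adjusted p under 0.974, and 0 of 9 genes called at 0.00514% of all genes. None of the 9 had an unadjusted p under 0.05 there, and DESeq2 called none of them and 0.0206% of all genes. Both comparisons with the wild type share the 4 wild-type libraries and are not independent of each other.

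Null and wild-type round spermatids were compared in the same way, and no effect was shown to differ from that in spermatocytes, since no interaction was called. Pld6 was at 20.98, 17.3, 25.4 and 20.8 CPM in null replicates 1 to 4 and at 42.03, 25.1 and 33.1 CPM in wild-type replicates 1, 2 and 4, so that replicate 3 of the null lay just above replicate 2 of the wild type on this scale. The log2 fold change was -0.68 (SE 0.22, adjusted p = 0.123 by edgeR). Piwil1 was at 63.9, 53.4, 130 and 104 CPM in the null against 102 to 196 CPM, a log2 fold change of -0.68 (SE 0.34, adjusted p = 0.281 by edgeR). Null replicates 3 and 4, the libraries with numbers above 60, overlapped the wild type and replicates 1 and 2 lay below it. Piwil2 was at 43.2, 41.5, 57.7 and 49.8 CPM against 59.3 to 89.2 CPM, with a log2 fold change of -0.57 (SE 0.19, adjusted p = 0.132 by edgeR).

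Henmt1 was at 22.4 to 27.3 CPM in null round spermatids, below the wild type at 31.4 to 36.4 CPM, with a log2 fold change of -0.48 (SE 0.15, adjusted p = 0.115 by edgeR), and Mov10l1, at 21.8 to 24.5 CPM, was below 26.9 to 32.2 CPM with a log2 fold change of -0.34 (SE 0.16, adjusted p = 0.255 by edgeR). With DESeq2 Henmt1 had an adjusted p of 0.0330 but a log2 fold change of -0.47, short of the limit of 0.5. Asz1, Mael, Pnldc1 and Gtsf1 were within 0.13 log2 units of the wild type. Among the 9 genes 0 were called by edgeR, at 0.0518% of 19310 genes, 4 had an unadjusted p under 0.05, against 19.3% of all genes, and DESeq2 called 0, at 3.64%. On the scale of the round spermatid fit alone, Piwil2, Mov10l1, Pld6 and Henmt1 had null libraries wholly below the wild type, as had 12.3% of all genes. Pachytene/diplotene markers summed to 2477 to 2626 CPM in these null libraries against 2801 to 3056 CPM in the wild type, with no overlap. Of the 7, 0 were called by edgeR, 3 had an unadjusted p under 0.05 and DESeq2 called 3, with a median log2 fold change of -0.57, and their part in the result was not tested. Within library numbers above 60, Piwil1 was at 122 CPM in the wild-type library and averaged 117 CPM in 2 null libraries, while Pld6 was at 33.1 and 23.1 CPM and Henmt1 at 34.6 and 24.9 CPM. Within numbers up to 60 Piwil1 averaged 149 CPM in 2 wild-type and 58.7 CPM in 2 null libraries.

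Heterozygous round spermatids differed from the wild type by log2 fold changes between -0.44 (Piwil1, SE 0.34, adjusted p = 0.700 by edgeR) and 0.13 (Pnldc1, SE 0.22, adjusted p = 0.891 by edgeR), and null from heterozygous round spermatids by -0.30 (Mov10l1, SE 0.15, adjusted p = 0.657 by edgeR) to 0.18 (Gtsf1, SE 0.12, adjusted p = 0.707 by edgeR). In both 0 of 9 genes were called, at 0.0207% and 0.00518% of all genes, with 1 gene (Henmt1) and 0 genes at an unadjusted p under 0.05 and none called by DESeq2, at 0.0363% and 0.104%. Henmt1 was also the 1 gene with heterozygous libraries wholly below the wild type, where 4.43% of all genes had them.

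**Figure D4:**
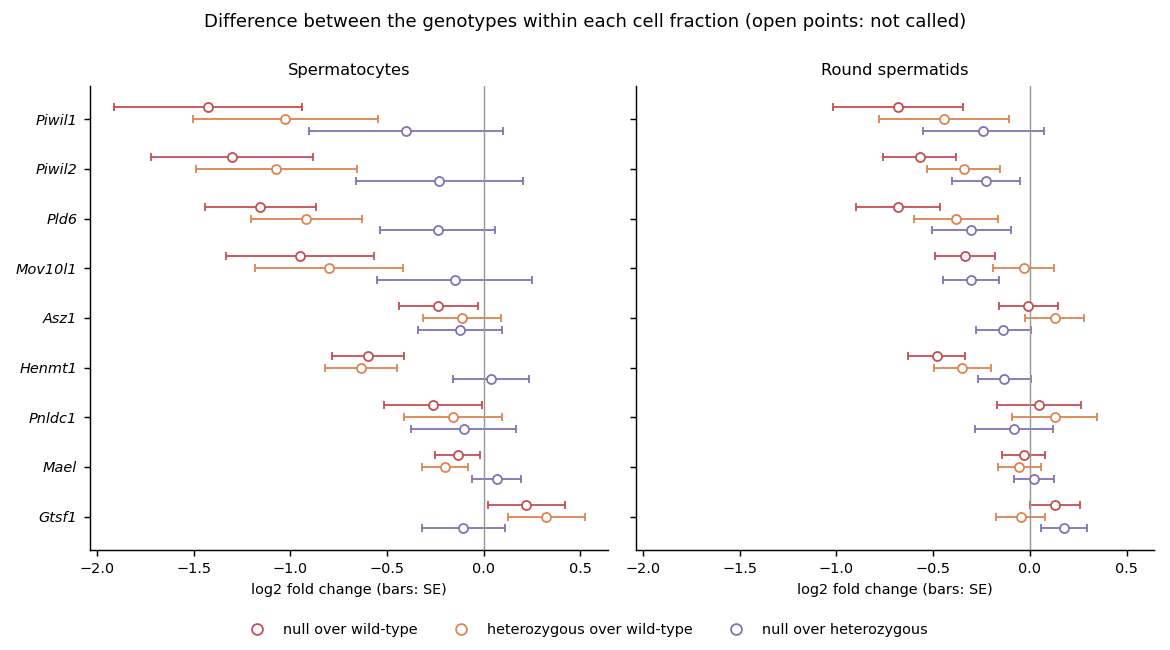
Log2 fold change between genotypes for the 9 tested genes, in spermatocytes (left) and round spermatids (right). Points are edgeR estimates with bars of 1 SE, and no point was called. In spermatocytes null over wild-type estimates reached -1.43 for Piwil1 and -1.30 for Piwil2, against -0.68 and -0.57 in round spermatids.

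The spread between libraries of 1 group differed among the genes. In wild-type spermatocytes the coefficient of variation was 52.6% for Piwil1, 53.2% for Piwil2 and 56.1% for Mov10l1, whereas it was 2.52% for Mael, 12.2% for Gtsf1 and 13.1% for Henmt1. The highest library of Piwil2 exceeded the lowest 3.995-fold there, and that of Mael 1.06-fold. In null round spermatids the same figures were 40.6% for Piwil1, 15.3% for Piwil2, 5.04% for Mov10l1 and 9.88% for Mael, so that in that group Piwil1 was the more variable of these PIWI genes.

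Other genes of the piRNA pathway were examined as a list of 26, all of which were tested. Between wild-type fractions 12 were called lower in round spermatids and 1 higher, with a median log2 fold change of -0.62 against 0.02 for all genes. Over all genes 11.4% were called lower and 24.2% in either direction. The largest decreases were those of Tdrd5 (-1.75, SE 0.45, adjusted p = 0.00648 by edgeR), Tdrd1 (-1.47, SE 0.44, adjusted p = 0.0160 by edgeR), which encode Tudor domain proteins that hold PIWI proteins in cytoplasmic granules, Mybl1 (-1.42, SE 0.28, adjusted p = 0.00110 by edgeR) and Adad2 (-1.06, SE 0.34, adjusted p = 0.0250 by edgeR). Gtsf1l, a paralog of Gtsf1, was the gene called higher (0.59, SE 0.20, adjusted p = 0.0339 by edgeR). Of 9 Tudor domain and helicase genes 7 were called lower, and the remaining pair, named after the values were seen, were Tdrd6 (-0.10) and Tdrd7 (0.04). Of 6 further biogenesis factors 3 were called lower, of 3 transcription regulators 1 and of 5 genes of nuclear silencing with PIWIL4 1.

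Mybl1 was at 59.2 to 96.0 CPM in wild-type spermatocytes and 23.7 to 31.3 CPM in wild-type round spermatids, so the groups were apart, and at 31.9 to 52.4 CPM in null spermatocytes, below all wild-type libraries. The null difference in spermatocytes, a log2 fold change of -0.68 (SE 0.23, adjusted p = 0.0795 by edgeR), was not called. When each wild-type library was left out in turn, Tdrd5 and Mybl1 were called in 7 of 7 tests, Tdrd1 in 4, Adad2 in 3 and Gtsf1l in 1.

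In the null 4 of the 26 genes were called lower in round spermatids, Tex15 (-1.41, SE 0.42, adjusted p = 0.0237 by edgeR), Mybl1 (-0.78, SE 0.26, adjusted p = 0.0422 by edgeR), Rnf17 (-0.60, SE 0.18, adjusted p = 0.0244 by edgeR) and the granule helicase gene Ddx4 (-0.56, SE 0.15, adjusted p = 0.0148 by edgeR), where 5.42% of all genes were called lower and 17.1% in either direction. Each of the 4 was called in 3 or 4 of the 7 tests that left out 1 null library. Leptotene/zygotene markers also summed lower in null round spermatids, at 99.3 to 130 CPM against 163 to 208 CPM in null spermatocytes, and their part was not tested. In the heterozygote 0 of 26 were called by edgeR, with 4 at an unadjusted p under 0.05 and 1 called by DESeq2, while over all genes these shares were 8.89%, 23.6% and 11.2%. No pathway gene was called between genotypes by edgeR in either fraction. In null against wild-type spermatocytes 13 of the 26 had an unadjusted p under 0.05, 11 of them lower, against 30.4% of all genes, and DESeq2 called 5, against 15.6% of all genes. Of these Tdrd1, Gpat2, Adad2 and Prmt5 were lower and Tex15 was higher in the null. These 5 are named for the count, after their values were seen.

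**Figure D5:**
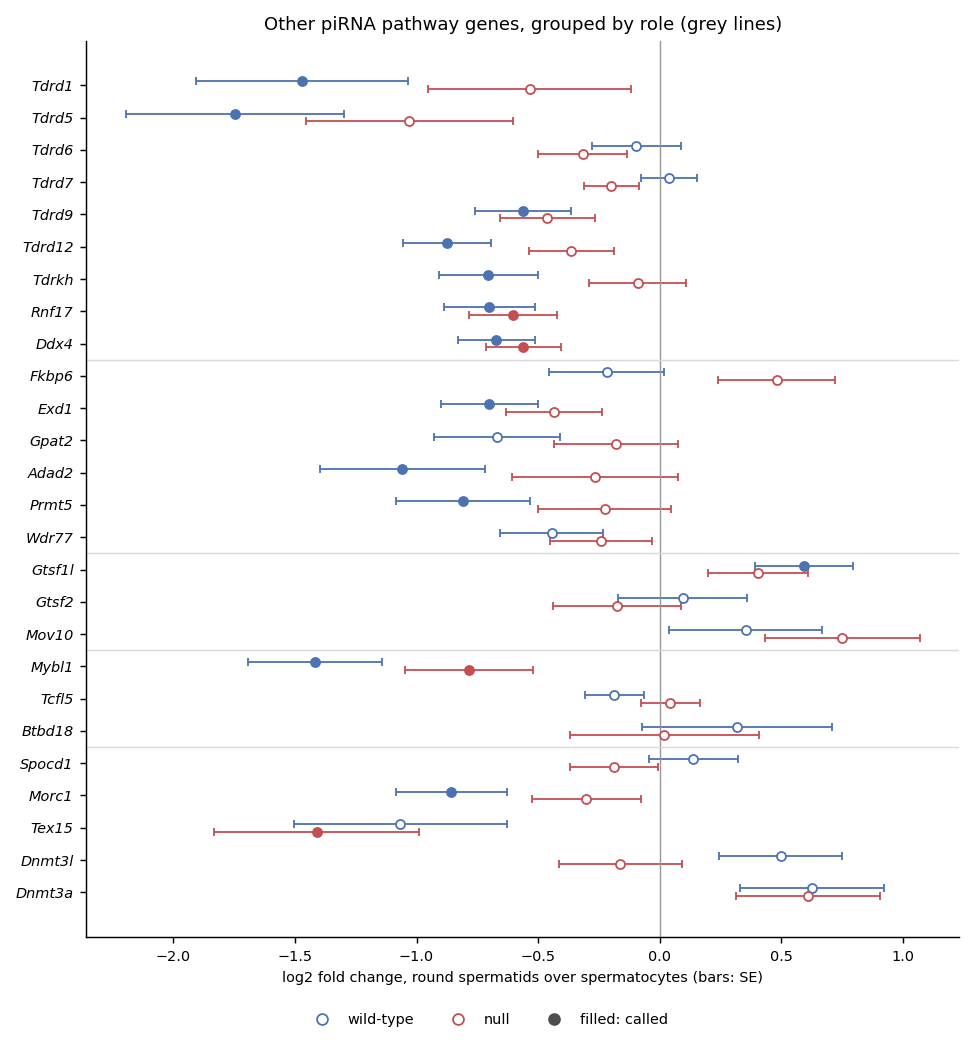
Log2 fold change of round spermatids over spermatocytes for 26 other piRNA pathway genes in wild-type and null mice, with grey lines between groups of one role (from the top, Tudor domain and helicase proteins, other biogenesis factors, paralogs of Gtsf1 and Mov10l1, transcription regulators, nuclear silencing with PIWIL4). Points are edgeR estimates with bars of 1 SE, and filled points were called. In the wild type 13 were called, from Tdrd5 at -1.75 to Gtsf1l at 0.59, and in the null 4 were called.

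The genes whose pattern over the 6 group means was most like that of a PIWI gene were found by the root mean square difference of centred mean log2 CPM among 14591 genes. Nearest to Piwil1 were Pld6 (0.08 log2 units), Chst1 (0.08) and Ube2t (0.08), so that another gene of the 10 ranked first. Nearest to Piwil2 were Sdhd (0.05), Ago4 (0.05) and Rrs1 (0.06), and of the 10 genes Mov10l1 came closest to it, at rank 298 (0.16). Ago4 is itself partly removed by the deletion. Against wild-type spermatocytes its log2 fold changes were -1.36 in the null and -1.02 in the heterozygote, neither called by edgeR. DESeq2 called Ago4 lower in the null (-1.34, adjusted p = 0.00806) and not in the heterozygote (adjusted p = 0.0564). The 6 means rest on libraries that share depth and composition, and Piwil4 was not in this fit.

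Some counts are less certain for reasons of sequence. Henmt1 overlaps the gene Gm9857 on the opposite strand over 14.7% of its exons, Pnldc1 the antisense gene AL589878.1 over 5.41% and Piwil4 the antisense gene Gm10706 over 2.54%. The strand setting of the counting is not given in the sources used here, so how reads of these stretches were assigned or left out is not known. For Piwil2, Mael, Mov10l1, Asz1 and Gtsf1 no 31-base stretch of the transcripts recurred in another gene.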

How the data were processed

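Reads of poly(A) RNA libraries with strand information were trimmed with Trim Galore and aligned to mm10 with STAR, which gave gene counts (methods and submitters' processing notes; versions, annotation and strand setting of the counting are not given in the sources used here). The values used are these raw counts per gene as deposited by the authors, not normalised. Of 24 libraries, 3 named as outliers in the labels entered an alternative only. Groups came from the labels. The genes and lists were chosen with earlier results of these data known.

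Counts were tested with the quasi-likelihood test of edgeR (version 4.0.16, R 4.3.3, limma 3.58.1) with TMM scaling, per fraction for genotypes (10 and 11 libraries) and over all 21 libraries for fractions and interactions. Genes with fewer than 3 libraries of the fit at 10 or more counts were not tested. Calls required a Benjamini-Hochberg adjusted p under 0.05 over all genes and a log2 fold change beyond 0.5. Fold changes carry SEs, and CPM were scaled by the TMM factors of the joint fit, those of outlier libraries by factors over all 24. DESeq2 (1.42.0) and other settings were alternatives. Both tests were also run on simulated counts in which all genes had the same dispersion, without differences in cell composition. That run does not show how the tests behave for genes as variable as Piwil1, Piwil2 or Mov10l1 in wild-type spermatocytes. Named were the 10 genes, up to 4 called pathway genes with the largest change in each direction per fraction comparison and every called one per genotype comparison, the 3 genes nearest to each PIWI gene in pattern (symbols of Rik or Gm numbers aside), and the Argonaute genes as a check of the labels. All 55536 gene identifiers matched GENCODE M21.

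Replicate numbers were not taken as pairs: deviations from group means correlated above 0.1 in 4 of 17 pairs of one number within a fraction and in 4 of 9 across fractions. Libraries of consecutive numbers in the 2 fractions did so in 8 of 9 pairs (r from -0.14 to 0.307), among them all 3 wild-type and all 3 null pairs but not all heterozygous ones, and the labels do not tie them together. No libraries were duplicates. The depth of 12825105 to 29749058 counts makes 3 counts at most 0.223 CPM.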

Additional observations from a re-analysis of the deposited data

Results flagged for a closer look

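Piwil1 in heterozygous round spermatids was at 165.7 CPM in replicate 2, against 87.5, 80.6 and 72.8 CPM in replicates 1, 3 and 4. Replicate 2 stood apart from the other 3 libraries by more than Dixon's 95% critical value for 4 samples. It was the 1 such case among 27 combinations of a gene and a group that were examined, and chance gives about 1 in 20. Piwil2 and Pld6 were also highest in that library, at 70.6 and 35.7 CPM. So were the summed markers of leptotene/zygotene cells (150 CPM against 107 to 113 CPM), spermatogonia (120 CPM against 73.4 to 99.7 CPM) and Sertoli cells (289 CPM against 86.2 to 249 CPM), while round spermatid markers were at 15970 CPM, near replicate 3 (15630 CPM) and below replicates 1 and 4 (38330 and 29510 CPM). The part of these cells was not tested.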

How the results depend on the processing

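Of 1566 values of single genes under an alternative setting, 1445 kept their direction and side of the threshold, 54 became called, 12 lost their call and 55 changed sign, and the cause was not tested. With DESeq2, the number of the 9 genes called went from 0 to 4 for null against wild-type spermatocytes, from 0 to 2 for heterozygous against wild-type spermatocytes, from 4 to 7 for wild-type fractions, from 0 to 2 for heterozygous fractions and from 1 to 3 for null fractions, where DESeq2 called 15.6%, 6.31%, 26.7%, 11.2% and 19.9% of all genes in either direction. Without a filter on low counts these were 4, 4, 6, 2 and 2, at 7.61%, 4.3%, 12.6%, 5.83% and 10.7% of all genes. With only the compared genotypes in the fit, 1 gene was called for null against wild-type spermatocytes (6.93% of all). RLE size factors gave 3 for null fractions (3478 of 20404 over all genes), and with the outlier libraries added the wild-type and null fractions gave 0 and 0, where 0 and 2275 of 20542 genes were called. Over all genes, null against wild-type spermatocytes gave 8 calls, 3026 with DESeq2, 2623 without the filter, 1303 with only the compared genotypes, 4 with a term for library number and 4526 without wild-type replicate 5. For null against wild-type round spermatids these counts were 10, 702 with DESeq2, 238 without the filter and 20 with RLE. RLE and the newer quasi-likelihood method of edgeR, which was added after seeing the data, each called 5 genes for wild-type fractions (24.6% and 24.9% of all), with Piwil2 as the addition (adjusted p = 0.0436 and 0.0480 by edgeR).

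With 1 library left out at a time, 0 to 5 genes were called for null against wild-type spermatocytes, 0 to 3 for heterozygous against wild-type spermatocytes, 3 to 7 for wild-type fractions, 0 to 1 for heterozygous fractions, 0 to 3 for null fractions and 0 in the other comparisons. Libraries of one replicate number deviated together in only some pairs (4 of 17 within a fraction and 4 of 9 across fractions). A replicate block by genotype and number gave 7 genes for wild-type fractions (29.5% of all genes), and one by consecutive library numbers gave 5 (24.2%). Piwil2 was called in both, at -1.156 (adjusted p = 0.00647 by edgeR) and -0.8678 (adjusted p = 0.0354 by edgeR). A replicate block for null against wild-type spermatocytes gave 687 of all genes. In heterozygous fractions Piwil2 turned to 0.01172 and 0.005014 under these 2 blocks, and in the null interaction Gtsf1 to 0.003689 under the second.

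Other log2 fold changes also turned sign, to at most 0.3053 in size. With the outlier libraries these were, for null against heterozygous spermatocytes, Mov10l1 (0.07568), Pld6 (0.001151) and Pnldc1 (0.04991), for heterozygous against wild-type round spermatids Mov10l1 (0.03212) and Asz1 (-0.06143), for heterozygous fractions Piwil2 (0.02854), and for the null interaction Asz1 (-0.03152) and Gtsf1 (0.02659). With the term for library number, null against heterozygous spermatocytes gave Piwil2 (0.2198), Mov10l1 (0.3053) and Pnldc1 (0.09697). For null against wild-type round spermatids, Asz1 turned with DESeq2 (0.007533), RLE (0.006526) and no filter (0.03093), and Mael with no filter (0.005908).

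Ranges over libraries left out that crossed 0 were as follows. For heterozygous against wild-type spermatocytes they were -0.2319 to 0.07987 for Asz1, -0.009711 to 0.4983 for Gtsf1 and -0.264 to 0.002297 for Pnldc1. For null against heterozygous spermatocytes they were -0.8348 to 0.0448 for Piwil1, -0.5629 to 0.1144 for Piwil2, -0.4355 to 0.06954 for Mov10l1, -0.2782 to 0.2171 for Gtsf1, -0.09428 to 0.1514 for Henmt1 and -0.2788 to 0.007902 for Pnldc1. For null against wild-type round spermatids they were -0.0803 to 0.01023 for Mael, -0.07288 to 0.02989 for Asz1 and -0.0345 to 0.1934 for Pnldc1. For heterozygous against wild-type round spermatids they were -0.1063 to 0.09261 for Mov10l1 and -0.1308 to 0.06261 for Gtsf1, and for null against heterozygous round spermatids -0.4946 to 0.1197 for Piwil1 and -0.2032 to 0.03436 for Pnldc1. For heterozygous fractions they were -0.5147 to 0.1788 for Piwil2, -0.09888 to 0.02198 for Mael, -0.2526 to 0.2703 for Mov10l1 and -0.3065 to 0.178 for Gtsf1, and for null fractions -0.3074 to 0.05368 for Piwil2. In the interactions Gtsf1 ranged from -0.1464 to 0.07979 for the null and from -0.5125 to 0.01018 for the heterozygote.

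Depth limits Piwil4, with 0 to 9 counts per library, and pools of unknown overlap and mixed cell stages limit every comparison.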
